A study of Mus musculus with 12 samples.

Results

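The 10 macrophage identity genes described here were chosen by name from the 24421 entries of the gene count table, and all 10 were found and passed the filter on low counts. A group of 4 is associated with long-lived, tissue-resident macrophages (Cd163, Mrc1, Lyve1 and Folr2), and the other 6 with macrophages or white blood cells in general (Adgre1, Csf1r, Cd68, Lyz2, Itgam and Ptprc). Messenger RNA of the tibialis anterior, a muscle of the lower hindlimb, was counted in 12 libraries from males at 4 months of age: 6 of the C57Bl/6 strain (WT) and 6 of mdx/mTR mice. The mdx allele removes dystrophin, the protein that links the fibre cytoskeleton to the membrane, and mTR denotes the telomerase RNA gene, which is also disrupted in the mdx/mTR mouse. WT mice carry neither mutation, so the contributions of mdx and mTR to any difference cannot be told apart.

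Skeletal muscle holds macrophages at rest in the connective tissue around fibres and vessels, and more arrive as blood monocytes after injury. Both kinds depend on the receptor encoded by Csf1r and are specified by the transcription factor PU.1, the product of Spi1. Resident cells are known for scavenging receptors, among them those encoded by Cd163, which takes up haemoglobin bound to haptoglobin, and Mrc1, the mannose receptor. None of the 10 genes is confined to macrophages. Lyve1 is also a marker of lymphatic endothelium, Itgam is also expressed by monocytes and neutrophils, Lyz2 by other myeloid cells, and Ptprc by nearly all white blood cells.

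Library totals ran from 36903560 to 40981012 counts for WT and between 35136327 and 60330410 for mdx/mTR, and the lowest count of any of the 10 genes in any library was 75. Dmd, the dystrophin gene, stood at 228 to 244 CPM (counts scaled to the size of the library) in WT and at 35.2 to 56.4 CPM in mdx/mTR, so every mdx/mTR library was below every WT library. Terc, the telomerase RNA gene, had 2 counts in all libraries together and so cannot check the labels. In bulk muscle, more cells of a type and more RNA per cell cannot be told apart.

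The promoters of the members were searched for the core of the PU.1 motif, GAGGAA, on both strands, because 8 of the 10 genes rose together. RefSeq sequences (GRCm38.p6) were matched for 7 of the 10 genes, with 9 start sites, and Lyve1, Adgre1 and Csf1r were not among them. In the 250 bases before the start, 4 of 9 sites held GAGGAA, those of Cd68, Itgam, Mrc1 and Ptprc (1 of its 2 sites), against 23.3% of 32851 promoters of the same length. The longer form GAGGAAGT, which contains the core, was in 0 of 9 and in 2.4% of all promoters. Of the other motifs searched, TGANTCA (AP-1) was in 2 of 9 sites (Cd68 and Folr2) and in 6.7% of all promoters, and TTGCGCAA (C/EBP) in 0 of 9 and in 0.2%. The promoters of Cd68, Itgam and Mrc1, which rose and hold the PU.1 core, are shown, with those of Lyz2, which rose and holds no match, and Cd163, which did not pass the test and holds none either. Folr2 also rose, with no match at either of its sites, so not every gene that rose held the core. Cd163 was the only matched gene that did not pass, since Lyve1 was not matched. These sites therefore cannot tell whether the core goes with the rise. In the sequences, capitals mark GAGGAA or its reverse complement, and each sequence runs 5′ to 3′ on the strand of the gene.
Cd68, chr11:69666171-69666420, minus strand: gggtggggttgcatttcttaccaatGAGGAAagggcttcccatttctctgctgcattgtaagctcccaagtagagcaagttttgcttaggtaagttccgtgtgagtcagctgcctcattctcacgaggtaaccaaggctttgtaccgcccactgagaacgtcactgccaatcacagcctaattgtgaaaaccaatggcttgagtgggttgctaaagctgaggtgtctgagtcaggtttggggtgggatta
Itgam, chr7:128062390-128062639, plus strand: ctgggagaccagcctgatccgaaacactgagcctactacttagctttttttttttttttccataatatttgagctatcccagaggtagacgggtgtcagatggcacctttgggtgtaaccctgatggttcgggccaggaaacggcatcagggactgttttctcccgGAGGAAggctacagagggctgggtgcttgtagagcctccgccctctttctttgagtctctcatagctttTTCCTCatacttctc
Mrc1, chr2:14229164-14229413, plus strand: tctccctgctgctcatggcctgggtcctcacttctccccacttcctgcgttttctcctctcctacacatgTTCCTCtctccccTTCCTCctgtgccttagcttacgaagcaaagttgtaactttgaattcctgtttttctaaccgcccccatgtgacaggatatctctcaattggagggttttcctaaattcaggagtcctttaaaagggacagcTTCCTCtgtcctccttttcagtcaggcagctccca
Lyz2, chr10:117282273-117282522, minus strand: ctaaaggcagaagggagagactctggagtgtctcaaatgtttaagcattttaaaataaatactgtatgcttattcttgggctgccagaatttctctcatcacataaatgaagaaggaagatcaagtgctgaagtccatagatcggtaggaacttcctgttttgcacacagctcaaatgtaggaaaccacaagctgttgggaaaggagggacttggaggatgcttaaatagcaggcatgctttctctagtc
Cd163, chr6:124304401-124304650, plus strand: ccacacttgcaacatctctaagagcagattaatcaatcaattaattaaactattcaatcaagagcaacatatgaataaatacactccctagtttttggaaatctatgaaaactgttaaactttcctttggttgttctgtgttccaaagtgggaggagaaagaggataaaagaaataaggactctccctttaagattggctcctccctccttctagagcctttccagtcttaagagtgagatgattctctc
These matches describe letters in a window. The Cd68 sequence has its match 225 bases before the start. Itgam has matches beginning 84 and 15 bases before it, and Mrc1 at 180, 167 and 35.

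Of the 10 genes, 8 rose in mdx/mTR muscle and 0 fell (edgeR quasi-likelihood test, Benjamini-Hochberg adjusted p below 0.05), where 25.0% of the 13937 genes tested were called higher and 23.4% lower. All 6 pan-macrophage genes rose, with log2 fold changes of 1.32 to 2.55 and a median of 2.06. Of the 4 resident genes, Mrc1 and Folr2 rose by about 1 on the log2 scale, while Cd163 and Lyve1 had values of 0.09 and 0.01. The median over the 10 genes was 1.53, against 0.01 over all genes tested. For the same 8 genes all 6 mdx/mTR libraries lay above all 6 WT libraries, which held for 12.6% of genes tested. Without mdx/mTR replicates 2 and 5, which had the highest levels of most pan-macrophage genes, 8 genes were again called higher, beside 19.9% of all genes. Tested against a minimum log2 fold change of 0.5, 8 members were called higher, beside 7.26% of all genes.

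**Figure D1:**
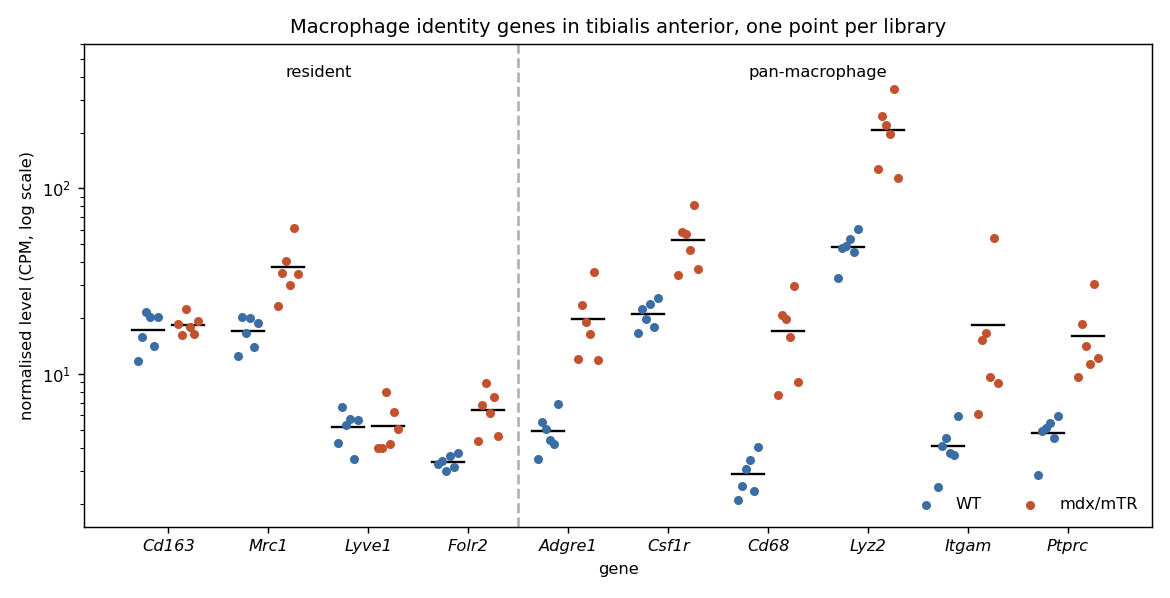
Normalised level (CPM, log axis) of the 10 genes in each of the 6 WT (blue) and 6 mdx/mTR (orange) libraries, with a bar at the mean. The groups are separate for Mrc1, Folr2 and the 6 pan-macrophage genes and overlap for Cd163 and Lyve1.

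Among the pan-macrophage genes, the lysosomal membrane protein gene Cd68 changed most. It ran from 2.08 to 4.02 CPM (median 2.78) in WT muscle and from 7.69 to 29.7 CPM (median 17.7) in that of mdx/mTR mice. Its mean went from 2.90 ± 0.739 to 17.1 ± 8.19 CPM (SD, n = 6 each), a 5.89-fold difference of means (log2 fold change 2.55 with an SE of 0.31, adjusted p 2.4e-05 by edgeR). The lowest mdx/mTR library, replicate 1, was still above the highest WT library.

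Lyz2, which encodes the lysozyme of myeloid cells, had the highest level of the 10 genes. It ran from 32.9 to 60.5 CPM (median 48.6) in WT muscle and from 114 to 342 CPM (median 208) in that of mdx/mTR mice, with a log2 fold change of 2.11 with an SE of 0.24 (adjusted p 1.4e-05 by edgeR). Its neighbour and paralog Lyz1 shares 16.1% of the 50-base stretches of its transcript with other genes, and Lyz2 shares 15.4%, all with Lyz1. Lyz1 did not pass the test. It ran from 1.47 to 7.36 CPM in WT muscle and from 2.14 to 7.22 CPM in that of mdx/mTR mice (log2 fold change -0.37 with an SE of 0.33, adjusted p 0.378 by edgeR). How the counting treated shared reads is not given in the sources used here.

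Adgre1 encodes an adhesion receptor widely used as a surface marker of mouse macrophages. It ran from 3.47 to 6.89 CPM (median 4.71) in WT muscle and from 11.9 to 35.3 CPM (median 17.8) in that of mdx/mTR mice, a log2 fold change of 2.004 with an SE of 0.26 (adjusted p 4.3e-05 by edgeR). Ptprc, the gene of the CD45 phosphatase of white blood cells, ran from 2.86 to 5.91 CPM (median 5.04) in WT muscle and from 9.64 to 30.4 CPM (median 13.2) in that of mdx/mTR mice. Its log2 fold change was 1.74 with an SE of 0.26 (adjusted p 1.4e-04 by edgeR). In both genes no mdx/mTR library fell within the WT range.

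Csf1r, the receptor for the growth factors encoded by Csf1 and Il34, had the smallest change of the 6. It ran from 16.6 to 25.7 CPM (median 21.03) in WT muscle and from 34.1 to 81.7 CPM (median 51.5) in that of mdx/mTR mice (log2 fold change 1.32 with an SE of 0.19, adjusted p 1.0e-04 by edgeR). Over 873 bases, 17.9% of its exon length, Csf1r overlaps exons of Hmgxb3 on the opposite strand, and strand handling is not given in the sources used here. Hmgxb3 ran from 35.6 to 41.5 CPM in WT muscle and from 31.8 to 36.0 CPM in that of mdx/mTR mice (log2 fold change -0.21 with an SE of 0.05, adjusted p 0.0037 by edgeR), opposite in sign to Csf1r.

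Itgam, which encodes the integrin alpha chain CD11b, was the most uneven of the 10 genes. It ran from 2.47 to 5.94 CPM (median 3.91) in WT muscle and from 6.12 to 53.8 CPM (median 12.4) in that of mdx/mTR mice, and the top value, in mdx/mTR replicate 5, stood far from the other 5 libraries, which reached 16.7 CPM. The log2 fold change was 2.17 with an SE of 0.47 (adjusted p 0.0018 by edgeR), 1.47 without mdx/mTR replicate 5 and 1.33 without replicates 2 and 5. In the authors' deposited table the log2 fold change of Itgam is 1.49, and those of the other 9 members run from 0.004 (Lyve1) to 2.125 (Cd68). For all 10 genes the deposited value is below that of edgeR. DESeq2 as run here on all 12 libraries gave 2.16 for Itgam. The cause of the difference between the deposited 1.49 and the 2.16 found here was not tested. In GENCODE M21, 70.0% of the exon length of Itgam is also assigned to Gm49368 on the same strand, a name that is not an entry of the count table.

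**Figure D2:**
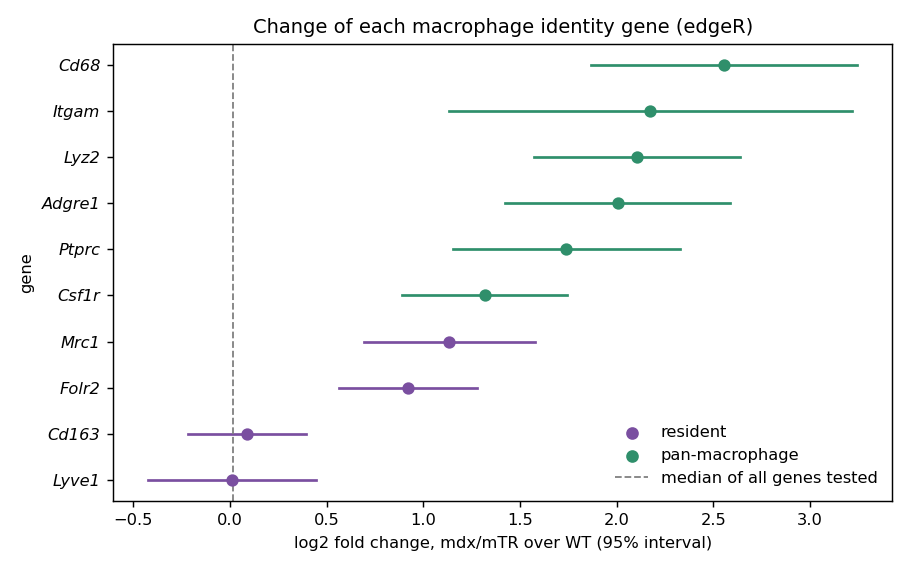
Change between the groups (log2 fold change, mdx/mTR relative to WT) of each gene with its 95% interval, resident genes in purple and pan-macrophage genes in green; the dashed line is the median of all genes tested (0.01). The estimates of the 6 pan-macrophage genes lie above those of the 4 resident genes, and the intervals of Cd163 and Lyve1 include 0. The interval of Csf1r (0.891 to 1.742) overlaps those of Mrc1 (0.694 to 1.575) and Folr2 (0.563 to 1.277).

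The resident genes divided into a pair that rose and a pair that did not pass the test. Mrc1 ran from 12.5 to 20.3 CPM (median 17.7) in WT muscle and from 23.2 to 61.2 CPM (median 34.9) in that of mdx/mTR mice, a log2 fold change of 1.14 with an SE of 0.20 (adjusted p 4.2e-04 by edgeR). Folr2, the folate receptor of macrophages, ran from 2.998 to 3.75 CPM (median 3.34) in WT muscle and from 4.32 to 8.94 CPM (median 6.49) in that of mdx/mTR mice (0.92 with an SE of 0.16, adjusted p 4.2e-04 by edgeR). The WT libraries were closest together for Folr2, with a coefficient of variation of 8.31%.

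Cd163 ran from 11.7 to 21.5 CPM (median 18.0) in WT muscle and from 16.2 to 22.3 CPM (median 18.2) in that of mdx/mTR mice. The mdx/mTR libraries lay almost entirely inside the WT range, with only replicate 3 above it. The log2 fold change was 0.09 with an SE of 0.14 (adjusted p 0.610 by edgeR), with a 95% interval from -0.21 to 0.40. Lyve1, which encodes a hyaluronan receptor, ran from 3.47 to 6.67 CPM (median 5.48) in WT muscle and from 3.98 to 8.04 CPM (median 4.62) in that of mdx/mTR mice. Its log2 fold change was 0.01 with an SE of 0.19 (adjusted p 0.966 by edgeR), with an interval from -0.42 to 0.44. The sign of both values depended on single libraries: without WT replicate 1 the value of Cd163 was -0.000402, and without mdx/mTR replicate 3 that of Lyve1 was -0.145.

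The scaling of libraries matters for these near-zero values. With library totals alone, the median over all genes was 0.17 on the log2 scale in place of 0.01. Of the genes tested, 40.2% (5596) were then called higher and 1560 lower, in place of 3479 and 3257, and 8 members were called higher. On that scale Cd163 had a log2 fold change of 0.241 (edgeR adjusted p 0.154) and Lyve1 of 0.170 (edgeR adjusted p 0.517), and neither passed.

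Since Lyve1 also marks lymphatic vessels, the lymphatic list was read beside it. Of its 6 genes 5 were tested, where 25.0% of all genes tested were called higher and 23.4% lower. Pdpn and Mmrn1 were called higher (only 1 gene without WT replicate 5). Flt4 was called lower (0 genes without mdx/mTR replicate 1, 4 or 6, or without WT replicate 2, 3 or 4). The list summed to 18.4 to 26.2 CPM in WT and 25.6 to 44.9 CPM in mdx/mTR. Within that sum, Pdpn ran from 2.67 to 4.51 CPM in WT and from 6.55 to 25.7 CPM in mdx/mTR. Flt4 ran from 9.81 to 12.5 CPM in WT and from 8.09 to 11.4 CPM in mdx/mTR. The sum thus does not stand for every gene of the list. The list's defining transcription factor gene Prox1 ran from 1.06 to 1.91 CPM in WT muscle and from 1.45 to 2.28 CPM in that of mdx/mTR mice (log2 fold change 0.35 with an SE of 0.17, adjusted p 0.0993 by edgeR; 0.0345 when WT replicate 4 was left out and 0.0337 with library totals alone), and Ccl21a is listed at 0 in every library. The part of lymphatic cells in the Lyve1 value was not tested.

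To compare the members with each other, each was divided by Csf1r within the same library, which needs no scaling of libraries. The log2 ratios of the 9 other genes were compared between the groups with two-sided exact permutation tests, adjusted over the 9; the smallest p that 6 against 6 libraries allow is 0.00216. Because Csf1r itself rose, a gene that did not change has a lower ratio to it: over the 13896 genes tested that had no 0 count, the median log2 ratio differed by -1.26 between mdx/mTR and WT, and 95.3% of genes had a difference below 0. With p adjusted over all these genes, 88.6% of them passed as lower and 1.62% as higher. Of the 9 member ratios, 4 were higher in mdx/mTR (Cd68, Lyz2, Adgre1 and Ptprc) and 3 lower (Cd163, Lyve1 and Folr2), and the same 7 passed whether adjusted over the 9 or over all genes (adjusted p 0.0029 to 0.0151 in the latter). A lower ratio was thus the usual outcome in the table, and the lower ratios are not a result about these members.

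Per 100 Csf1r counts, WT libraries held 70.6 to 108.6 Cd163 counts (median 79.2) and mdx/mTR libraries 20.1 to 54.5 (median 39.0), without overlap, which 73.9% of genes also showed in that direction. The log2 difference of -1.15 lay near the median gene (61.9% of genes had a lower value) and restates the rise of Csf1r beside a Cd163 level that did not pass the test. Lyve1 stood at 19.5 to 29.9 per 100 Csf1r counts (median 24.7) in WT and at 6.80 to 14.2 (median 10.4) in mdx/mTR, and its log2 difference of -1.27 was likewise near the median gene, with 48.6% of genes lower. Folr2 differed by -0.39, with 91.3% of genes lower, and its groups overlapped. For Mrc1 no difference from Csf1r was detected: it stood at 72.9 to 91.1 per 100 Csf1r counts in WT and at 59.98 to 93.97 in mdx/mTR, a log2 difference of -0.18 (exact permutation p 0.117, adjusted p 0.117), with 93.8% of genes lower. Without mdx/mTR replicate 6 the Mrc1 difference was -0.256 (exact permutation test, adjusted p 0.0130).

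Cd68 had the largest rise relative to Csf1r, from 11.1 to 15.6 per 100 Csf1r counts in WT to 22.5 to 36.4 in mdx/mTR (log2 difference 1.17, exact permutation p 0.00216, adjusted p 0.0039). The differences of Lyz2 (0.76) and Adgre1 (0.66) had the same p-values, and in these 3 genes the groups were separate, as they were in this direction for 0.691% of genes. Ptprc differed by 0.39 (exact permutation p 0.0130, adjusted p 0.0167) and Itgam by 0.55 (exact permutation p 0.0498, adjusted p 0.0560), both with overlap. The Itgam value was 0.301 without mdx/mTR replicate 5 and passed without mdx/mTR replicate 1 (0.676, exact permutation test, adjusted p 0.0162) or replicate 4 (0.634, adjusted p 0.0438). Without mdx/mTR replicates 2 and 5 together, the ratios of Folr2 (-0.258) and Ptprc (0.282) did not pass (exact permutation test, adjusted p 0.0796 each).

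**Figure D3:**
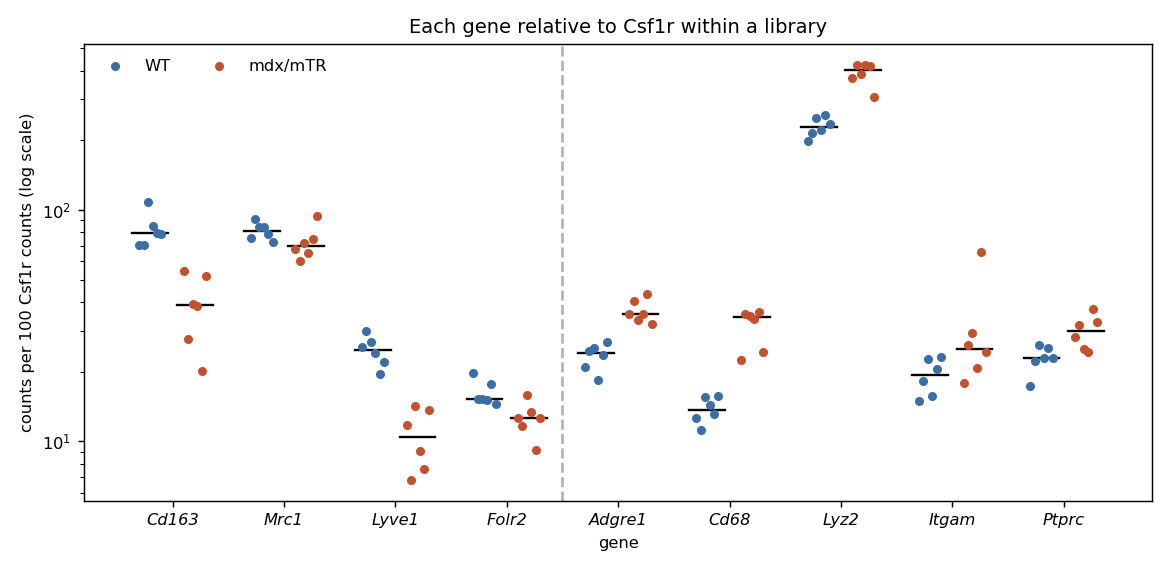
Counts of each gene per 100 Csf1r counts in the same library (log axis), WT in blue and mdx/mTR in orange, with a bar at the median. Cd68, Lyz2 and Adgre1 are higher in every mdx/mTR library than in any WT library, and Cd163 and Lyve1 are lower, as are 73.9% of all genes.

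Of the summed counts of the 4 resident genes, Cd163 made up 34.1% to 46.3% in WT and 18.0% to 37.1% in mdx/mTR, and Mrc1 35.9% to 44.0% in WT and 46.3% to 67.0% in mdx/mTR. Lyve1 made up 9.98% to 14.5% and 6.41% to 10.1%, respectively. The lowest Cd163 share and the highest Mrc1 share were in the same library, mdx/mTR replicate 5. These shares follow from the counts above and are given without a test.

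Levels of different genes were compared per kilobase of exon (RPKM, from scaled counts and GENCODE M21 exon lengths). In WT the order was Lyz2 (36.6 ± 6.94 RPKM, SD, n = 6), Csf1r (4.30 ± 0.730), Cd163 (3.85 ± 0.883), Mrc1 (3.17 ± 0.607), Folr2 (2.55 ± 0.212), Cd68 (2.31 ± 0.588), Lyve1 (1.79 ± 0.397), Adgre1 (1.52 ± 0.369), Ptprc (0.938 ± 0.207) and Itgam (0.825 ± 0.231). Only Lyz2 was separate from its neighbour in this order; the ranges of all other neighbours overlapped. In mdx/mTR, Cd68 came second (13.6 ± 6.52 RPKM), ahead of Csf1r (10.7 ± 3.58), Mrc1 (6.98 ± 2.42), Adgre1 (6.09 ± 2.72) and Folr2 (4.85 ± 1.32). Cd163 (4.11 ± 0.498 RPKM) came after all of these, and Lyve1 was last (1.81 ± 0.558). Lyz2 (158 ± 63.6 RPKM) was again the only gene separate from its neighbour.

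The mdx/mTR libraries differed from each other more than the WT libraries did for 9 of the 10 genes. Coefficients of variation were 8.31% to 28.1% in WT and 12.1% to 96.7% in mdx/mTR, and Cd163 was the exception, with 22.9% in WT and 12.1% in mdx/mTR. Replicate 5 of mdx/mTR had the top level of Mrc1 and all 6 pan-macrophage genes, and replicate 3 was highest for Cd163, Lyve1 and Folr2. Replicate 1 was lowest for 6 genes. Replicate 2 was among the top pair for 5 of the 6 pan-macrophage genes and for none of the resident genes, and it was the lowest for Cd163 and Lyve1. In WT, replicate 6 was highest for 7 genes and replicate 1 lowest for 8.

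**Figure D4:**
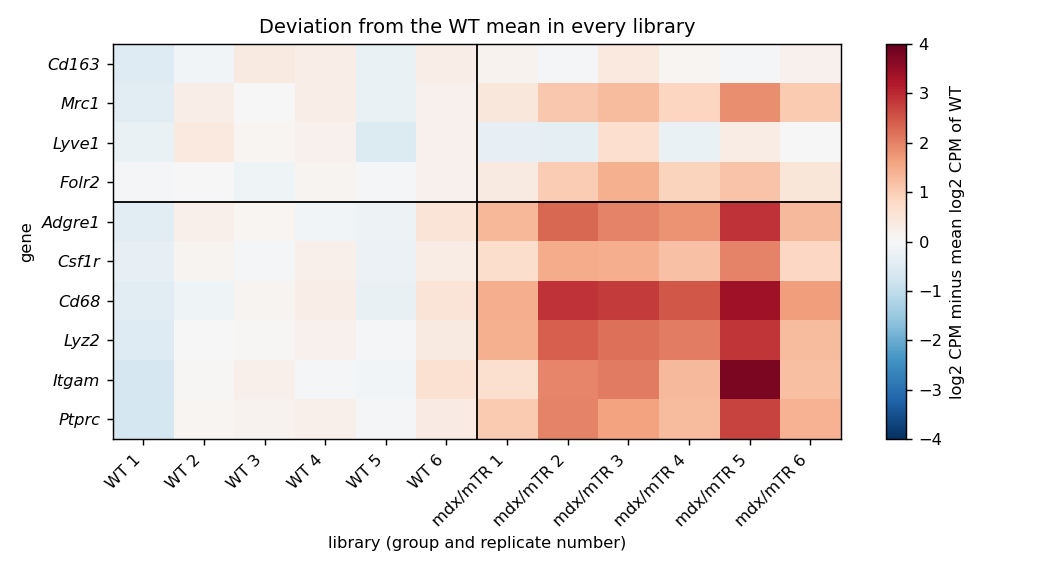
Log2 CPM of each gene in each library minus the mean log2 CPM of WT (colour scale, red higher and blue lower). The 6 pan-macrophage genes are red in all mdx/mTR libraries and deepest in replicate 5, while the rows of Cd163 and Lyve1 stay pale.

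The summed markers of monocytes, neutrophils, dendritic cells and fibroblasts were highest in mdx/mTR replicate 5. So were those of T cells, NK cells, lymphatic endothelium, satellite cells and both lists of other macrophage genes. The sums of B cells, mast cells, eosinophils, red blood cells and blood endothelium were highest in other libraries. The summed level of the 7 monocyte markers was 3.28 to 10.2 CPM in WT, 11.4 to 20.7 CPM in 5 mdx/mTR libraries and 78.7 CPM in replicate 5. All 4 monocyte markers that could be tested rose, among them Ccr2, the receptor that draws monocytes out of the marrow, at 2.78 to 8.02 CPM in WT and 9.78 to 56.0 CPM in mdx/mTR (log2 fold change 1.78 with an SE of 0.42, adjusted p 0.0031 by edgeR; 1.16 without mdx/mTR replicate 5 and 1.05 without replicates 2 and 5). For the neutrophil list the WT sums were 3.39 to 6.37 CPM. Replicate 5 of mdx/mTR had 27.9 CPM, and the other mdx/mTR libraries had 2.51 to 5.23 CPM. These sums mix genes that moved in opposite directions. The median of Mmp9 was 2.97 CPM for WT but 1.08 CPM for mdx/mTR (edgeR adjusted p 0.238). Csf3r stood at 0.389 to 1.03 CPM for WT but at 1.255 to 12.7 CPM for mdx/mTR (edgeR adjusted p 0.0030). Of the 4 tested neutrophil genes, 2 were called higher (Csf3r and S100a8) and 0 lower. Without mdx/mTR replicate 5, 1 was called higher and 1 lower. Without WT replicate 1, 4 or 6, 1 was called higher. The 6 genes of fibroblasts and their progenitors, of which 5 rose, summed to 876 to 1594 CPM in WT and 2189 to 4386 CPM in mdx/mTR. Of 6 dendritic cell genes 3 rose. Against a minimum log2 fold change of 0.5, 1 dendritic cell gene was called higher, beside 7.26% of all genes. In the main test, 25.0% of all genes tested were called higher and 23.4% lower. The 7 myofibre genes summed to 150200 to 170400 CPM in WT and 109700 to 146600 CPM in mdx/mTR, lowest in replicate 5. Of these 7, 2 were called lower (Myh4 and Pygm) and 0 higher. Against the minimum log2 fold change of 0.5, 0 were called lower. The count called lower was 4 with DESeq2, with limma-voom or without mdx/mTR replicate 1. That sum thus does not stand for every gene of its list. The part of these cells in the results on the 10 genes was not tested.

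Lists of lymphocytes were low beside the members. The summed levels in WT and mdx/mTR were 0.528 to 1.22 and 2.18 to 4.71 CPM for 7 T cell genes, 0.361 to 2.04 and 0.628 to 1.58 CPM for 5 B cell genes, and 0.111 to 0.410 and 1.09 to 2.66 CPM for 5 NK cell genes. The 4 globin genes of the red blood cell list are listed at 0 in every library, so these genes say nothing of blood left in the muscle. Alas2, the remaining gene of that list, ran from 11.6 to 41.6 CPM in WT and 9.82 to 22.3 CPM in mdx/mTR.

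Of 15 other genes of resident macrophages, 13 were tested, 6 rose and 2 fell, with a median log2 fold change of 0.28. Over all genes tested, 25.0% were called higher and 23.4% lower, so 2 of 13 lower is no more than the share in the whole table. Ccl8, a chemokine gene, ran from 0.133 to 0.739 CPM in WT muscle and from 2.63 to 8.73 CPM in that of mdx/mTR mice (log2 fold change 3.81 with an SE of 0.37, adjusted p 4.3e-06 by edgeR), and the lectin gene Clec10a from 2.04 to 3.53 and from 4.82 to 6.84 CPM (1.13 with an SE of 0.14, adjusted p 2.7e-05 by edgeR). Timd4, a receptor for phosphatidylserine on long-lived resident macrophages, fell: it ran from 0.392 to 1.15 CPM in WT muscle and from 0.0154 to 0.328 CPM in that of mdx/mTR mice, without overlap (log2 fold change -1.99 with an SE of 0.42, adjusted p 0.0017 by edgeR). It rests on few reads, 218 in all libraries together. The other gene that fell, Cd209f, had a log2 fold change of -0.81 with an SE of 0.28 (adjusted p 0.0271 by edgeR) with overlapping groups, and it did not pass without mdx/mTR replicate 1, 3, 5 or 6 or WT replicate 3, with library totals alone or without mdx/mTR replicates 2 and 5, which leaves 1 gene that fell.

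Other pan-macrophage genes were mostly higher in mdx/mTR muscle. Of 15, 14 rose and 0 fell, beside 25.0% and 23.4% of all genes tested, with a median log2 fold change of 1.997. The protease gene Ctss went from 4.14 to 9.16 CPM in WT to 27.1 to 91.7 CPM in mdx/mTR (3.01 with an SE of 0.31, adjusted p 6.7e-06 by edgeR), and Mpeg1, a pore-forming protein of phagocytes, from 4.195 to 10.8 CPM to 35.4 to 119 CPM (3.02 with an SE of 0.31, adjusted p 7.2e-06 by edgeR). The 1 gene that did not pass was Mertk, a receptor for dying cells (0.35, edgeR adjusted p 0.121).

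**Figure D5:**
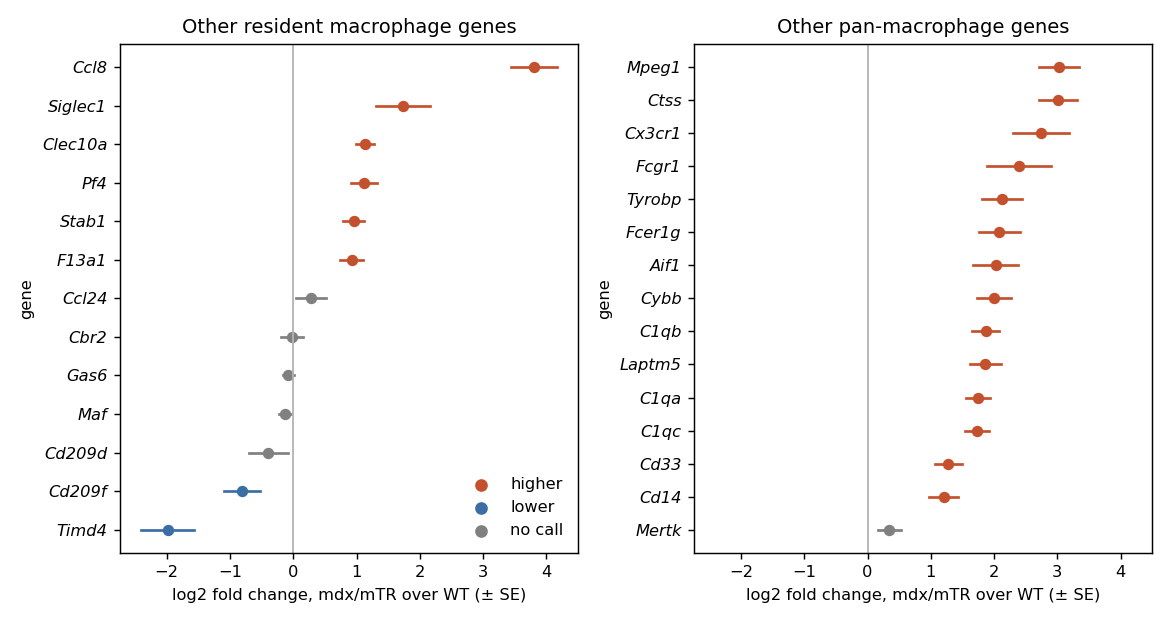
Change between the groups (log2 fold change ± SE, mdx/mTR relative to WT) of the tested genes of both further macrophage lists; orange marks genes called higher, blue lower and grey neither. Resident genes spread from -1.99 (Timd4) to 3.81 (Ccl8), and 14 of 15 pan-macrophage genes lie between 1.201 and 3.02.

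Upstream of Csf1r, neither ligand gene passed. Csf1 ran from 10.9 to 17.8 CPM in WT muscle and from 11.4 to 27.4 CPM in that of mdx/mTR mice (log2 fold change 0.38 with an SE of 0.18, adjusted p 0.102 by edgeR). It was 0.187 without mdx/mTR replicate 5, and it passed without mdx/mTR replicate 1 (0.469, edgeR adjusted p 0.0341), without WT replicate 6 (0.478, edgeR adjusted p 0.0446) and with library totals alone (0.549, edgeR adjusted p 0.0426). Il34 ran from 4.86 to 7.80 CPM and from 6.34 to 7.60 CPM (0.10 with an SE of 0.10, adjusted p 0.430 by edgeR). Of the 11 tested ligand and regulator genes, 7 rose and 0 fell (median 0.52), beside 25.0% and 23.4% of all genes tested. Against the minimum log2 fold change of 0.5, 4 of them were called higher, beside 7.26% of all genes. Runx1, a transcription factor of blood and of denervated or damaged muscle, rose from 2.42 to 4.61 CPM in WT to 13.8 to 24.7 CPM in mdx/mTR (2.63 with an SE of 0.19, adjusted p 3.8e-07 by edgeR), and Csf2rb, a cytokine receptor chain, had a log2 fold change of 1.66 with an SE of 0.25 (adjusted p 1.25e-04 by edgeR). Spi1, the PU.1 gene, rose from 0.917 to 1.98 CPM to 2.91 to 11.5 CPM (1.82 with an SE of 0.31, adjusted p 3.75e-04 by edgeR).

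Among partners and relatives of the members, 7 of 14 tested genes rose and 0 fell (median 0.51), beside 25.0% and 23.4% of all genes tested. Itgb2, the beta chain that pairs with the product of Itgam, ran from 1.42 to 3.80 CPM in WT muscle and from 6.55 to 30.9 CPM in that of mdx/mTR mice (2.30 with an SE of 0.36, adjusted p 1.8e-04 by edgeR), and like Itgam was highest in mdx/mTR replicate 5. Itgax, another alpha chain for it, had a log2 fold change of 2.47 with an SE of 0.32 (adjusted p 4.7e-05 by edgeR). Lamp2, a lysosomal membrane protein gene expressed in many cell types, ran from 97.3 to 107 CPM and from 133 to 157 CPM (0.50 with an SE of 0.05, adjusted p 3.9e-06 by edgeR). Tested against a minimum log2 fold change of 0.5, Lamp2 did not pass.

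Genes near the median profile of each group of members were sought by the root mean square difference over the 12 libraries. Each profile was log2(CPM + 0.5) minus its WT mean. Nearest to the median profile of the 6 pan-macrophage genes were Laptm5 (0.12), Ms4a6c (0.13) and Fcer1g (0.14), and nearest to that of the 4 resident genes were Slit3 (0.11), BC017643 (0.11) and Nucb2 (0.12). Laptm5 and Fcer1g are themselves in the list of other pan-macrophage genes. The 3 genes near the resident profile are in none of the lists, and their log2 fold changes were 0.54 to 0.60. That profile lies between the pair that rose and the pair that did not pass, so it describes none of the 4 resident genes.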

How the data were processed

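Per the submitters' processing notes, reads were processed with FastQC, STAR and DESeq2 on mm10; the counter, annotation and strand handling are not given in the sources used here. The authors deposited whole-number counts per gene symbol, 1 column per library, and 0 such columns were unmatched. A second deposited table gives the authors' result per gene: a normalized mean (signal), the log2 fold change, its standard error and the Wald statistic (both scores) and p-values.

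The deposited counts went unchanged into edgeR 4.0.16 (R 4.3.3): filterByExpr (13937 genes), trimmed-mean (TMM) scaling, a quasi-likelihood fit on group over all genes and Benjamini-Hochberg adjustment at 0.05. The standard error is the log2 fold change divided by the square root of F, and 95% intervals use 10 residual degrees of freedom. CPM uses TMM-scaled library sizes, and 3 counts, the floor, are 0.0460 to 0.0837 CPM. Exact permutation tests ran in Python 3.11.15. DESeq2 1.42.0 and limma 3.58.1 served as alternatives. Exon lengths and shared 50-base stretches came from GENCODE M21 (GRCm38, the assembly of mm10). No library was a copy of another of its group (chi-square per degree of freedom from 9.29). The labels do not state whether each library is a separate animal, so p-values measure the spread between these libraries.

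The 10 genes and all lists were chosen with earlier results of these data known. The rule names all 10, Dmd and Terc, the 2 smallest p-values of each of 4 lists (resident, pan-macrophage, Csf1r ligands and regulators, partners), Csf1, Il34, Ccr2, Lyz1, Itgb2, Prox1 and Timd4, and the 3 genes nearest to each profile. Hmgxb3, Gm49368, Alas2, Ccl21a, Spi1, Mertk, Cd209f, Pdpn, Mmrn1, Flt4, Csf3r, Mmp9, Myh4, Pygm and genes of the other observations were named after their values were seen.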

Additional observations from a re-analysis of the deposited data

Results flagged for a closer look

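In groups of 6 libraries, the distance from the highest or lowest library to the next one was set against the full range. Of 70 groups of values tested, 4 had a library far from the others, where chance gives 3.5 (1 in 20). All 4 were high values of mdx/mTR replicate 5. Itgam stood at 53.8 CPM there, where the remaining 5 libraries had 6.12 to 16.7 CPM, and at 65.8 counts per 100 Csf1r counts, against 17.9 to 29.4. Itgb2, the partner chain of Itgam, stood at 30.9 CPM against 6.55 to 15.1 CPM, and the monocyte receptor gene Ccr2 at 56.0 CPM against 9.78 to 16.8 CPM. The 4 values are not independent, since all come from 1 library and a pair of them from the same gene.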

How the results depend on the processing

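The count of 8 genes higher and 0 lower was the same under all 23 alternatives: other scalings, no filter, DESeq2, limma-voom, a replicate block, each library left out in turn, a minimum log2 fold change of 0.5, an adjusted p of 0.01, and, chosen after seeing the data, leaving out mdx/mTR replicates 2 and 5 together and thinning counts to the smallest total. Also chosen after seeing the data, adjusting the ratio tests over all genes changed no call. A minimum log2 fold change of 0.5 left 1012 genes called higher and 356 lower over the whole table. Leaving out 1 library gave -0.000402 to 0.161 for Cd163, -0.145 to 0.0956 for Lyve1, 1.47 to 2.35 for Itgam, and, for ratios to Csf1r, -0.256 to -0.126 for Mrc1 and 0.301 to 0.676 for Itgam. The Lyve1 value was -0.0435 with limma-voom. With Adgre1 as the reference, the log2 ratio differences were -0.837 for Mrc1 (adjusted p 0.00779), 0.0984 for Lyz2 (adjusted p 0.331), -0.110 for Itgam (adjusted p 0.706) and -0.268 for Ptprc (adjusted p 0.0668), all by exact permutation tests; with Ptprc as the reference they were -0.568 for Mrc1 (adjusted p 0.00487) and 0.268 for Adgre1 (adjusted p 0.0584). Another reference is another quantity. The Cd163, Lyve1 and Cd68 ratios passed under every alternative run, the first pair at differences near that of the median gene. Without mdx/mTR replicates 2 and 5, the ratios of Folr2 (-0.258) and Ptprc (0.282) did not pass; the cause was not tested. Not all of the 141 other genes listed were tested. Of them, 59 were called higher and 9 lower, beside 25.0% and 23.4% of all genes tested. With library totals alone 65 were higher and 5 lower, beside 5596 and 1560 over the whole table. With DESeq2 72 were higher and 14 lower, beside 3777 and 3458 of 17424 genes. Against the minimum fold change 43 were higher and 1 lower, beside 1012 and 356.

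Deviations of libraries with the same replicate number correlated at -0.139 to 0.334, with 2 of 6 above 0.1, so a shared number was not taken as a pairing. Under the replicate block 6420 genes passed in place of 6736, and Lyve1 was at -0.00593. As sign flips over same-numbered libraries, where the smallest exact p is 0.0312, the block gave adjusted p-values of 0.0703 for the ratios of Folr2 (-0.387) and Ptprc (0.391) and 0.0469 for that of Itgam (0.55).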

Other observations

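All 5 listed mast cell genes rose in mdx/mTR muscle, with a median log2 fold change of 0.90. Against a minimum log2 fold change of 0.5, 3 of them were called higher. Of all genes tested, 25.0% were called higher and 23.4% lower in the main test. The protease gene Cma1 ran from 2.22 to 2.87 CPM in WT muscle and from 4.24 to 5.48 CPM in that of mdx/mTR mice (0.89 with an SE of 0.10, adjusted p 1.6e-05 by edgeR). Of the 6 blood endothelium genes, 4 fell and 0 rose (median -0.37). With library totals alone 2 fell, and against the minimum log2 fold change of 0.5, 0 were called lower. The angiopoietin receptor gene Tek went from 43.7 to 51.6 CPM in WT to 29.9 to 33.9 CPM in mdx/mTR (-0.53 with an SE of 0.05, adjusted p 4.3e-06 by edgeR).

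Of the 7 T cell genes, 2 passed the filter on low counts and 1, Cd4, was called higher, beside 25.0% of all genes tested. Cd4 ran from 0.0556 to 0.424 CPM in WT muscle and from 1.08 to 2.81 CPM in that of mdx/mTR mice (2.85 with an SE of 0.37, adjusted p 4.2e-05 by edgeR). Cd3e, another gene of that list, ran from 0.0274 to 0.140 CPM in WT and from 0.0921 to 0.296 CPM in mdx/mTR. It was not tested, nor were Cd3d, Cd3g, Cd8a and Lck. Lck, a kinase of T cells, ran from 0.0555 to 0.159 CPM and from 0.164 to 0.682 CPM, without overlap. The count of T cell genes called higher was 2 with DESeq2, with no filter, and without mdx/mTR replicate 3 or any 1 WT library.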
